A study of Mus musculus with 6 samples.

Results

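The circadian clock genes described here are 10 transcripts, Arntl, Npas2, Clock, Cry1, Nr1d1, Nr1d2, Dbp, Tef, Per1 and Per3, in the colon of mice in which colorectal tumours were induced. They were selected by symbol from a count table of 20170 genes. They were proposed after their values in this comparison were known, so their levels and differences are given as a description and carry no test. The study profiled RNA of 6 colon samples from wild-type C57BL/6J mice, 3 from mice given azoxymethane and dextran sulfate sodium with chronic restraint stress (stressed) and 3 from mice given azoxymethane and dextran sulfate sodium alone (control). Azoxymethane (AOM), a mutagen, was injected at 10 mg/kg, and dextran sulfate sodium (DSS), which irritates the colon lining, was given at 2% in the drinking water 3 times. Stressed mice were kept in a ventilated tube for 3 to 4 hours each day, and all 6 samples had received AOM and DSS. The study's title links chronic stress to cancer stemness and tumour formation, and the comparison asks how the colon transcriptome differs with restraint. The labels do not say that each sample came from a separate mouse, so the spread between samples may be partly technical. They give neither ages nor the hour at which tissue was taken.

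The circadian clock is a feedback loop of transcription factors that runs in nearly every cell. CLOCK or its relative NPAS2 pairs with BMAL1, the product of Arntl, and binds E-box elements to switch on the Per, Cry, Nr1d1, Nr1d2, Dbp and Tef genes. PER and CRY proteins repress that pair, REV-ERB alpha and beta (from Nr1d1 and Nr1d2) repress Arntl, Npas2 and Cry1 through ROR elements, and DBP and TEF carry the rhythm to other genes through D-box elements. The set thus holds activators, repressors and outputs. In mouse tissues, the colon included, Arntl and Npas2 transcripts are high at the time of day when Dbp, Nr1d1 and Nr1d2 transcripts are low, and the reverse. Because the hour of collection is not given, a difference in hour between the groups and a difference made by restraint cannot be told apart.

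The promoters of the members were read from RefSeq windows on GRCm38.p6, each running from 250 bases before to 50 bases after a start of transcription, and are shown because the members are known to act on each other through short elements. All 10 members matched, with 15 windows. The search covered the E-box CACGTG, the D-box TTATGTAA or TTACGTAA, and the core of the ROR element AGGTCA or GGGTCA, each on both strands and without overlap among the matches found. The E-box stood in windows of 3 members, Cry1, Tef and Per1, where 8.09% of all 27025 genes with a window held it. By windows this was 4 of 15, beside 7.15% of all 32851. The D-box stood in the window of 1 member, Per3, in 2 copies, where 1.23% of all genes held it. The ROR core stood in windows of 4 members, Arntl, Clock, Nr1d2 and Per1, where 30.1% of all genes held it. By windows this was 4 of 15, beside 27.5% of all. In the sequences that follow, read 5′ to 3′ on the strand of the gene, capitals mark these matches. They lie at chr10:85185005-85185304 (minus strand, Cry1), chr15:81811164-81811463 (plus strand, Tef), chr11:69098699-69098998 (plus strand, Per1), chr4:151044616-151044915 (minus strand, Per3) and chr7:113207261-113207560 (plus strand, Arntl).
Cry1: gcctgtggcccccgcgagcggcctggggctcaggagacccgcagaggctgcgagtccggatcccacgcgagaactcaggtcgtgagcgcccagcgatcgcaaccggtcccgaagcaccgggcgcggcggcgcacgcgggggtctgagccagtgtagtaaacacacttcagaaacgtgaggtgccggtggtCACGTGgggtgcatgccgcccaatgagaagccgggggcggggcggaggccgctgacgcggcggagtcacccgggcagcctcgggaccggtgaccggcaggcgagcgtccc
Tef: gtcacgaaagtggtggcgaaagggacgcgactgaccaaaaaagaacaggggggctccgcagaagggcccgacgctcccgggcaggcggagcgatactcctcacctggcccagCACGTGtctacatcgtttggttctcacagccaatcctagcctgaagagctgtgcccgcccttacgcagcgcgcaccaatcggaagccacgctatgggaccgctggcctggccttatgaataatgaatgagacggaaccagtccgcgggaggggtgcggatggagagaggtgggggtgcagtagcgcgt
Per1: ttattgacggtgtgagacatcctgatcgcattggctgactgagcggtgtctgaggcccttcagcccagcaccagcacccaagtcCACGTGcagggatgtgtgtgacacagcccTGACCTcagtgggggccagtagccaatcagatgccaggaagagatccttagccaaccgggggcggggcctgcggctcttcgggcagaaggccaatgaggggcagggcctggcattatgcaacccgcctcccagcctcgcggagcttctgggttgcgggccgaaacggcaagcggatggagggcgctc
Per3: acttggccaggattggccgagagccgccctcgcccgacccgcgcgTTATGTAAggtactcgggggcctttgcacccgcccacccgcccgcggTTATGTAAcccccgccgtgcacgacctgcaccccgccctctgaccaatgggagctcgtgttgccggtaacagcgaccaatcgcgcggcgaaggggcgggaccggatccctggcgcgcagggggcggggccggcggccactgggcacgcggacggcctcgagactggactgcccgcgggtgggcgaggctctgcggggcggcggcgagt
Arntl: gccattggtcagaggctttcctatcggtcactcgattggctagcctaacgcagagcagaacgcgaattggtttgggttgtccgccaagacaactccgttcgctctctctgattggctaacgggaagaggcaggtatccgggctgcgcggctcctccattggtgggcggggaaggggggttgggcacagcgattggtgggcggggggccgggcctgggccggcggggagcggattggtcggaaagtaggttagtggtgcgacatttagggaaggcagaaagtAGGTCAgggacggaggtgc

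The E-box of Cry1 began 60 bases before the start, that of Tef 138 bases before it in the window printed and 127 bases before it in its other window, and that of Per1 166 bases before it. In Per1 a ROR core on the other strand, printed as TGACCT, began 137 bases before the start. The D-boxes of Per3 began 205 and 158 bases before it. The ROR core of Arntl began at base 32 of the transcript. A match in such a window is a description of the letters there. Elements outside the windows were not searched, so a member without a match may still hold one elsewhere.

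The 10 members fell into 3 patterns. Arntl, Npas2 and Cry1 stood lower in stressed samples, Nr1d1, Nr1d2, Dbp, Tef and Per3 stood higher on average, and Clock and Per1 overlapped between the groups with log2 fold changes close to 0. Levels are CPM, the reads of a gene scaled to the size of its library after TMM scaling, and log2 fold changes are stressed minus control with their standard error (SE). For 6 members, Arntl, Npas2, Cry1, Nr1d1, Nr1d2 and Tef, the groups did not overlap, where this held for 23.8% of the 15890 genes tested. It held in the higher direction for 12.5% and in the lower direction for 11.2% of them. As the members were proposed from this comparison, nothing is read from that count.

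Arntl, which encodes BMAL1, the partner that both activators need, was measured at 38.9, 24.6 and 31.6 CPM in stressed replicates 1, 2 and 3, and at 101, 55.4 and 62.0 CPM in control replicates 1, 2 and 3. All stressed samples lay below all control samples, and control replicate 1 lay far above the rest. The log2 fold change was -1.20 ± 0.27 (SE), or 2.29-fold lower in stressed samples. Npas2, the alternative partner of BMAL1, was at 35.4, 26.2 and 30.9 CPM in stressed samples and at 49.8, 35.8 and 48.2 CPM in control samples. The groups were set apart by a narrow gap, between stressed replicate 1 and control replicate 2, and the log2 fold change was -0.53 ± 0.17. Clock was at 151, 133 and 97.2 CPM in stressed samples and at 138, 113 and 147 CPM in control samples. The groups overlapped fully, and the log2 fold change was -0.06 ± 0.18.

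Cry1, a repressor of the activator pair whose transcript runs late in the cycle, was at 15.6, 16.7 and 14.5 CPM in stressed samples and at 49.3, 30.3 and 27.5 CPM in control samples. The stressed samples lay close together, well below the lowest control. The log2 fold change was -1.19 ± 0.23, close to that of Arntl. Means were 15.6 ± 1.09 CPM in stressed samples and 35.7 ± 11.8 CPM in control samples (SD, n = 3 each).

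**Figure D1:**
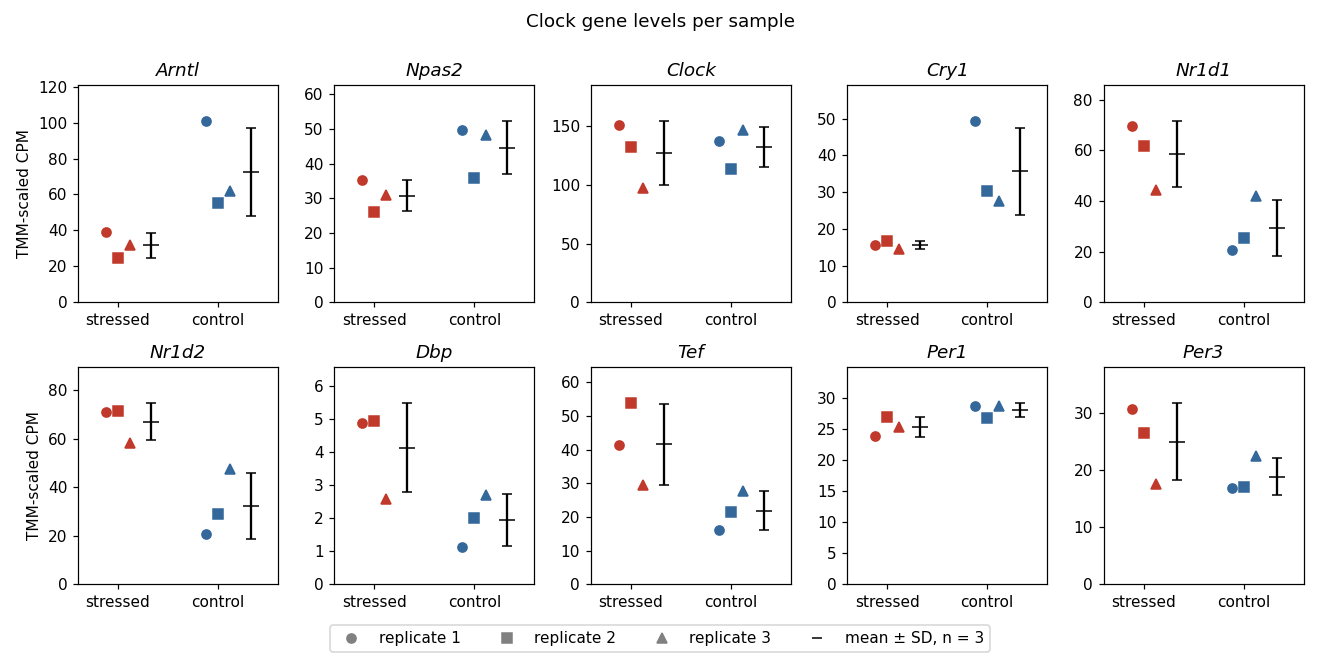
TMM-scaled CPM of the 10 members in each sample, with stressed samples in red, control samples in blue, marker shapes for replicates, and bars for the mean ± SD of 3 samples. Arntl, Npas2 and Cry1 lie lower in every stressed sample than in any control, and Nr1d1, Nr1d2 and Tef lie higher.

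The REV-ERB genes, whose products repress Arntl, stood on the opposite side. Nr1d1 was at 69.6, 61.8 and 44.2 CPM in stressed samples and at 20.7, 25.5 and 41.9 CPM in control samples. Stressed replicate 3 lay just above control replicate 3, and the log2 fold change was 0.99 ± 0.29. Nr1d2 was at 71.1, 71.5 and 58.2 CPM in stressed samples and at 20.8, 28.8 and 47.4 CPM in control samples. Its groups were further apart than those of Nr1d1, and the log2 fold change was 1.05 ± 0.29. In the GENCODE vM21 annotation (GRCm38), 263 exon bases of Nr1d1, 8.55% of its exon length, are shared with Thra on the opposite strand. Thra, a thyroid hormone receptor, was at 34.1, 23.0 and 34.2 CPM in stressed samples and at 30.4, 28.1 and 33.7 CPM in control samples. Its groups overlapped. Nr1d2 shared no exon base with another gene.

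Dbp and Tef encode the PAR bZIP factors that pass the rhythm on. Dbp was at 4.87, 4.95 and 2.59 CPM in stressed samples and at 1.14, 2.02 and 2.71 CPM in control samples. Stressed replicate 3 lay just below control replicate 3, so the groups overlapped, and the log2 fold change was 1.08 ± 0.43, with the largest SE of the 10. The counts behind these values were 159, 155 and 81 reads in stressed samples and 31, 56 and 89 reads in control samples. At 31 reads in control replicate 1 the exact Poisson 95% interval, which covers counting error only, runs from 0.776 to 1.62 CPM. Of the exon bases of Dbp, 539 or 18.0% are shared with Sphk2, a sphingosine kinase gene on the opposite strand. Sphk2 stood at 71.7, 55.1 and 61.2 CPM in stressed samples and at 46.2, 47.7 and 44.8 CPM in control samples. Its groups did not overlap, and its log2 fold change was 0.44 ± 0.12, on the same side of 0 as that of Dbp. Per length it stood at 15.3 ± 1.97 FPKM in stressed samples and 10.9 ± 0.681 FPKM in control samples (SD, n = 3 each), above Dbp in every sample. No source used here states the strand setting of the counting, so whether reads of Dbp and Sphk2 were kept apart is not known. Dbp is uncertain for that reason, as is Nr1d1, which shares 8.55% of its exon length with Thra.

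Tef was at 41.4, 53.7 and 29.4 CPM in stressed samples and at 16.2, 21.5 and 27.7 CPM in control samples. The lowest stressed sample lay just above the highest control, and the log2 fold change was 0.93 ± 0.27. Its annotated exons share 2.45% of their bases with an antisense transcript that has no row in the count table. Nr1d1, Nr1d2, Dbp and Tef had fitted folds of 1.99, 2.07, 2.11 and 1.90.

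The Per genes encode repressors of the activator pair. Per3 was at 30.8, 26.5 and 17.6 CPM in stressed samples and at 16.9, 17.1 and 22.6 CPM in control samples. Stressed replicate 3 lay inside the control range, and the log2 fold change was 0.41 ± 0.24. Per1, which is also induced directly by glucocorticoids, was at 23.8, 27.0 and 25.3 CPM in stressed samples and at 28.6, 26.8 and 28.7 CPM in control samples. All 6 samples lay within a narrow range, the groups overlapped, and the log2 fold change was -0.15 ± 0.11. Fkbp5, another glucocorticoid-induced gene, had a log2 fold change of -0.39 ± 0.45, with 34.8, 63.9 and 28.9 CPM in stressed samples and 89.0, 32.2 and 45.6 CPM in control samples. By edgeR's quasi-likelihood test its adjusted p was 0.668.

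**Figure D2:**
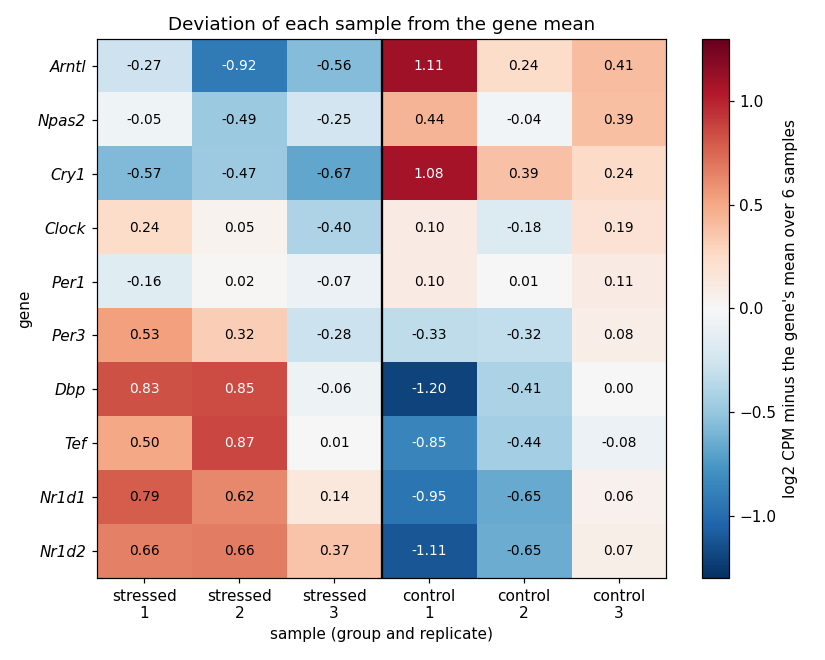
Log2 CPM of each member in each sample after subtracting the gene's mean over the 6 samples, with stressed samples left of the line and control samples right of it. Arntl, Npas2 and Cry1 are at their highest in control replicate 1, at 1.11, 0.44 and 1.08, while Nr1d1, Nr1d2, Dbp and Tef are at their lowest there, between -0.85 and -1.20.

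Within groups, several members placed the same samples at the ends of the range. Stressed replicate 3 was the lowest stressed sample for all 5 members with a positive log2 fold change, Nr1d1, Nr1d2, Dbp, Tef and Per3. Among control samples, replicate 1 was the lowest and replicate 3 the highest for the same 5. Of all 6 samples, control replicate 1 held the highest value of Arntl, Npas2 and Cry1 and the lowest of those 5. Within-group folds between the highest and lowest sample were 1.58 in stressed samples and 1.82 in control samples for Arntl. For Cry1 they were 1.15 in stressed samples and 1.79 in control samples, for Nr1d2 1.23 in stressed samples and 2.28 in control samples, and for Per1 1.13 in stressed samples and 1.07 in control samples.

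Ratios within a sample do not depend on how libraries are scaled. The log2 difference of Arntl and Nr1d1 was -0.84, -1.32 and -0.48 in stressed replicates 1, 2 and 3, and 2.28, 1.12 and 0.56 in control replicates 1, 2 and 3. It was negative in each stressed sample and positive in each control sample. Per length, in FPKM, Arntl likewise stood below Nr1d1 in each stressed sample and above it in each control sample. The mean was -0.88 ± 0.42 in stressed samples and 1.32 ± 0.87 in control samples (SD, n = 3 each). The log2 difference of Arntl and Dbp was 2.98, 2.30 and 3.57 in stressed samples and 6.38, 4.73 and 4.48 in control samples. In raw reads there were 7.98, 4.98 and 12.2 Arntl reads per Dbp read in stressed samples, and 88.2, 27.4 and 22.9 in control samples. These ratios depend on gene length and are comparable between samples only. Npas2 minus Dbp was 2.84, 2.39 and 3.54 in stressed samples and 5.37, 4.10 and 4.12 in control samples, again with no overlap. Each of these 3 ratios sets a member that stood lower against one that stood higher in the comparison from which both were proposed. Their separation follows from that choice, and nothing is read from it. Npas2 minus Clock, the 2 alternative partners of BMAL1, was -2.09, -2.34 and -1.65 in stressed samples and -1.47, -1.66 and -1.60 in control samples. There stressed replicate 3 reached into the control range.

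**Figure D3:**
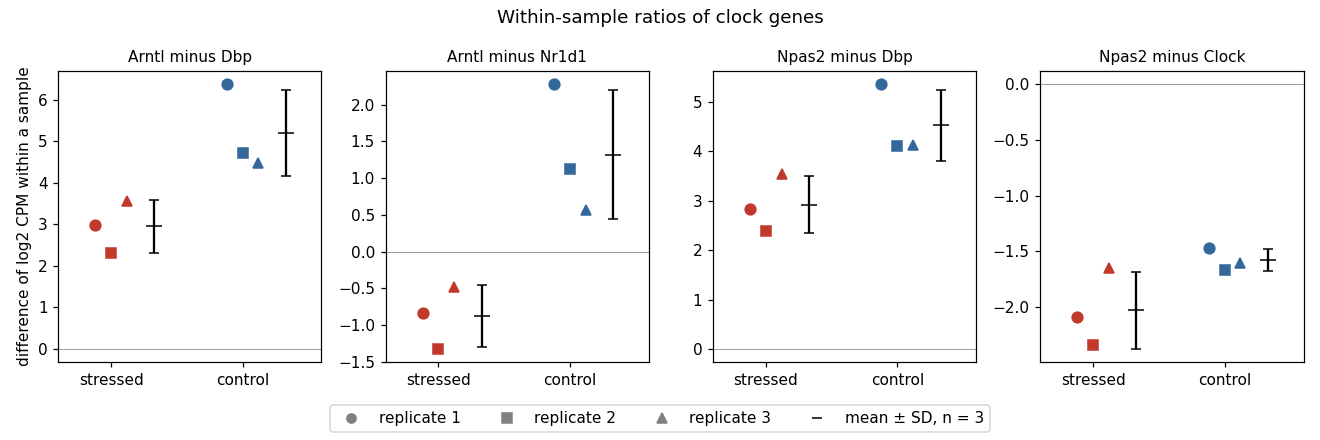
Within-sample differences of log2 CPM for 4 pairs of members, with stressed samples left of control samples, marker shapes for replicates and bars for the mean ± SD of 3 samples. Arntl minus Nr1d1 lies below 0 in the 3 stressed samples and above 0 in the 3 control samples, and Npas2 minus Clock overlaps between the groups.

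Levels between genes were compared per length, as the authors' FPKM. In stressed samples the order of mean FPKM was Nr1d1 (21.4 ± 4.20), Nr1d2 (14.6 ± 1.24), Clock (12.9 ± 2.46), Arntl (11.1 ± 2.43), Tef (9.41 ± 2.56), Npas2 (7.49 ± 1.11), Per1 (5.48 ± 0.383), Cry1 (5.26 ± 0.255), Per3 (4.17 ± 1.02) and Dbp (2.49 ± 0.745; SD, n = 3 each). The ranges of neighbours overlapped except between Nr1d1 and Nr1d2, between Npas2 and Per1, and between Per3 and Dbp. In control samples Arntl led at 24.4 ± 7.04 FPKM and was followed by Clock at 13.1 ± 1.53, Cry1 at 11.6 ± 3.29, Nr1d1 at 10.5 ± 4.14 and Npas2 at 10.5 ± 1.503. Below them stood Nr1d2 at 6.90 ± 3.03, Per1 at 5.87 ± 0.194, Tef at 4.84 ± 1.40, Per3 at 3.07 ± 0.575 and Dbp at 1.16 ± 0.489. Only the steps between Arntl and Clock and between Per3 and Dbp separated neighbours by range. Dbp was the lowest member in either group. Per length, Nr1d1 stood at 1.64, 1.45 and 1.27 times Nr1d2 in stressed samples and at 1.67, 1.49 and 1.48 times in control samples, so their proportion was alike while their levels differed. Npas2 stood at 0.556, 0.469 and 0.754 times Clock in stressed samples and at 0.858, 0.749 and 0.781 times in control samples.

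The rest of the clock machinery was read from 16 further core clock genes. By edgeR's quasi-likelihood test, 0 of the 16 passed an adjusted p of 0.05, as did 0 of all 15890 genes (0%). At an unadjusted p under 0.05 there were 3 higher and 0 lower among them, where 16.6% of all genes tested passed it, 7.82% higher and 8.82% lower. DESeq2 called 1 of them, Csnk1e, as higher, where it called 5.16% of all genes, 2.28% as higher and 2.87% as lower. Limma-voom called 0. As the members were proposed from this comparison, no calls are given for them. The list's median log2 fold change was 0.22, with 9 genes above 0 and 7 below, beside -0.01 over all genes tested. Groups did not overlap for 5 of the 16, beside 23.8% of all genes tested.

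Those 5 were Arntl2, Csnk1d, Csnk1e, Btrc and Timeless, each on the higher side, where 12.5% of all genes tested did not overlap on the higher side and 11.2% on the lower side. Arntl2, the paralogue of Arntl, was at 12.6, 20.3 and 17.9 CPM in stressed samples and at 9.77, 10.9 and 11.4 CPM in control samples. Its log2 fold change was 0.66 ± 0.21 (edgeR adjusted p = 0.251), on the other side of 0 from that of Arntl. Per length, Arntl stood at 2.78, 1.096 and 1.59 times Arntl2 in stressed samples and at 9.32, 4.58 and 4.89 times in control samples. Csnk1e and Csnk1d, kinases that mark PER proteins for breakdown, had log2 fold changes of 0.84 ± 0.25 and 0.21 ± 0.12, with edgeR adjusted p of 0.237 and 0.372. Csnk1e had 0.54 without stressed replicate 3. Timeless, which works mainly at replication forks in mammals, and Btrc, part of the ligase that degrades PER, had 0.81 ± 0.25 and 0.22 ± 0.13, with edgeR adjusted p of 0.239 and 0.395. Btrc had 0.145 without stressed replicate 3.

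The groups overlapped for the repressors, PAR bZIP relative and ROR factor that follow. Per2, the third Per gene, was at 35.7, 46.2 and 12.3 CPM in stressed samples and at 54.4, 38.5 and 35.3 CPM in control samples. Stressed replicate 3 alone was far below the rest; the log2 fold change of -0.44 ± 0.46 was -0.06 without it. Cry2, the paralogue of Cry1, had 0.28 ± 0.27, and -0.013 without the same sample. Cry1 stood at 1.14, 1.06 and 0.582 times Cry2 per length in stressed samples and at 2.86, 2.69 and 1.69 times in control samples. Hlf, the third PAR bZIP gene, was at 1.44, 1.47 and 0.993 CPM in stressed samples and at 1.29, 1.52 and 4.84 CPM in control samples. Its log2 fold change of -0.97 ± 0.57 was -0.11 without control replicate 3. It did not stand higher beside Dbp and Tef. Nfil3, a repressor at D-boxes, had -0.38 ± 0.28, and -0.13 without control replicate 1. Ciart, Bhlhe40 and Bhlhe41, repressors under E-box control, had 0.56 ± 0.41, 0.35 ± 0.19 and -0.89 ± 0.46, and Rora, an activator at ROR elements, had -0.55 ± 0.26. Without stressed replicate 2, Ciart had 0.13 and Bhlhe40 had 0.23, and without control replicate 2 Bhlhe41 had -0.58. The edgeR adjusted p of these 8 genes was between 0.339 and 0.629.

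**Figure D4:**
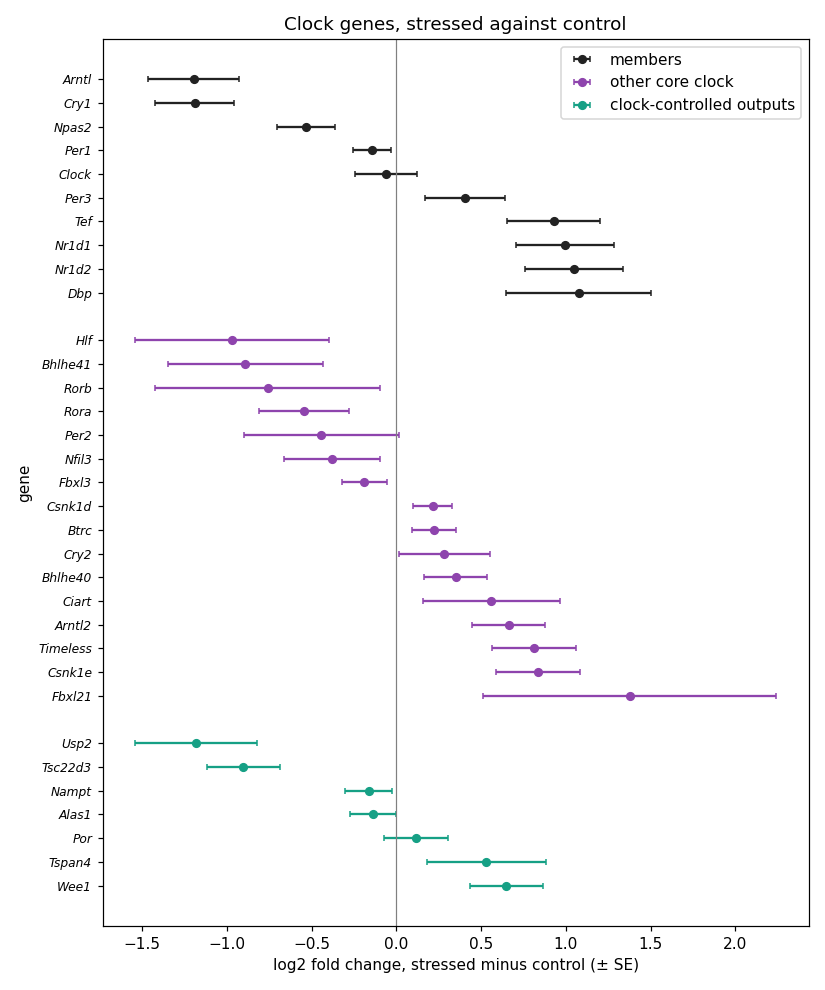
Log2 fold change, stressed minus control, with its SE from edgeR for the 10 members (black), 16 further core clock genes (purple) and 7 clock-controlled outputs (green), sorted within each list. Members reach from -1.20 for Arntl to 1.08 for Dbp, and no further core clock gene or output shown passed the adjusted threshold in edgeR.

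A second list held 7 transcripts known as clock outputs. By edgeR's quasi-likelihood test 0 of 7 passed the adjusted threshold, with 1 higher and 2 lower at an unadjusted p under 0.05, where 7.82% of all genes tested were higher and 8.82% lower. DESeq2 called 2, Usp2 and Tsc22d3, both lower, where it called 2.87% of all genes as lower, and limma-voom called 0. The median log2 fold change was -0.14. Usp2, a deubiquitinase that cycles in many tissues, was at 9.71, 9.38 and 5.96 CPM in stressed samples and at 29.1, 14.3 and 13.4 CPM in control samples. Every stressed sample lay below every control, and the log2 fold change was -1.18 ± 0.36 (edgeR adjusted p = 0.240). Without control replicate 1 it was -0.73. Tsc22d3, a leucine zipper that cycles and also responds to glucocorticoids, had -0.90 ± 0.22 (edgeR adjusted p = 0.195). Wee1, a kinase that delays mitosis, was at 17.2, 23.2 and 20.9 CPM in stressed samples and at 10.4, 12.5 and 16.2 CPM in control samples, a log2 fold change of 0.65 ± 0.21 (edgeR adjusted p = 0.254). Tspan4 had 0.53 ± 0.35, and 0.25 without control replicate 1 or 0.83 without control replicate 2. Nampt, the enzyme of NAD salvage, and Por and Alas1, targets of the PAR bZIP factors in mouse liver, had -0.16 ± 0.14, 0.11 ± 0.19 and -0.14 ± 0.14. Nampt had -0.039 without control replicate 1 and Alas1 -0.032 without stressed replicate 3.

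The genes whose profiles lay nearest to those of a member were sought among 13557 other genes, by the root-mean-square difference of mean-centred log2 CPM over the 6 samples. Nearest to Arntl were Adcyap1r1, a receptor for the neuropeptide PACAP, Pitpnm3, Gstt1, a glutathione transferase, Syn2, a synaptic vesicle protein, and Car2, carbonic anhydrase 2, at differences of 0.0735 to 0.122. Adcyap1r1 was at 4.44, 2.90 and 3.46 CPM in stressed samples and at 10.7, 5.63 and 6.90 CPM in control samples. Cry1 lay at 0.243 from Arntl and Npas2 at 0.379. Those 5 genes are the nearest of 13557, so nothing is read from these members lying further away. Nearest to Dbp were Sstr3, a somatostatin receptor, Pcdhgb6, a protocadherin, Slc39a10, a zinc transporter, Dok7 and Gcnt4, at 0.226 to 0.268. The members Nr1d1 and Tef lay nearer to Dbp than these, at 0.191 and 0.201, and Nr1d2 lay at 0.230. All these distances include the group difference from which the members were proposed.

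Several cell type markers moved with the groups. Summed CPM of 10 smooth muscle markers was 2621 to 4264 in stressed samples and 5774 to 7892 in control samples, with all 10 lower. That of 10 enteric neuron markers was 73.9 to 91.6 in stressed samples and 119 to 212 in control samples, with 9 lower. That of 8 T and NK cell markers was 11.0 to 25.3 in stressed samples and 30.5 to 59.5 in control samples, with all 8 lower. The 8 crypt stem cell markers summed to 638 to 1204 in stressed samples and 241 to 495 in control samples, with all 8 higher. Every one of these markers exceeded 3 counts in all samples. Sums of the other lists overlapped, but some of these lists still moved as one. All 7 absorptive colonocyte and all 8 B cell markers tested were lower, with median log2 fold changes of -1.32 and -1.91. All 5 neutrophil markers tested were higher, with a median of 1.98, but only 3 of them exceeded 3 counts in all control samples. Epithelium, macrophage, fibroblast and endothelium markers went both ways. Control replicate 1 held the highest sum of 7 absorptive colonocyte markers, at 5648, against 931 to 1556 in stressed samples and 1167 and 1950 in the other controls. Squamous markers summed to 2572 in control replicate 3, to 11.4 and 30.1 in control replicates 1 and 2, and to 52.5 to 78.0 in stressed samples. Krt5, Krt4, Trp63 and Sprr3 were at 0 in at least 1 sample. All 7 squamous markers tested had log2 fold changes below 0, with a median of -3.56. That rests on control replicate 3, as the sums of control replicates 1 and 2 lay below those of every stressed sample. In bulk tissue, fewer cells of a type and less RNA per cell cannot be told apart, and the part of these markers in the clock gene values was not tested.

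**Figure D5:**
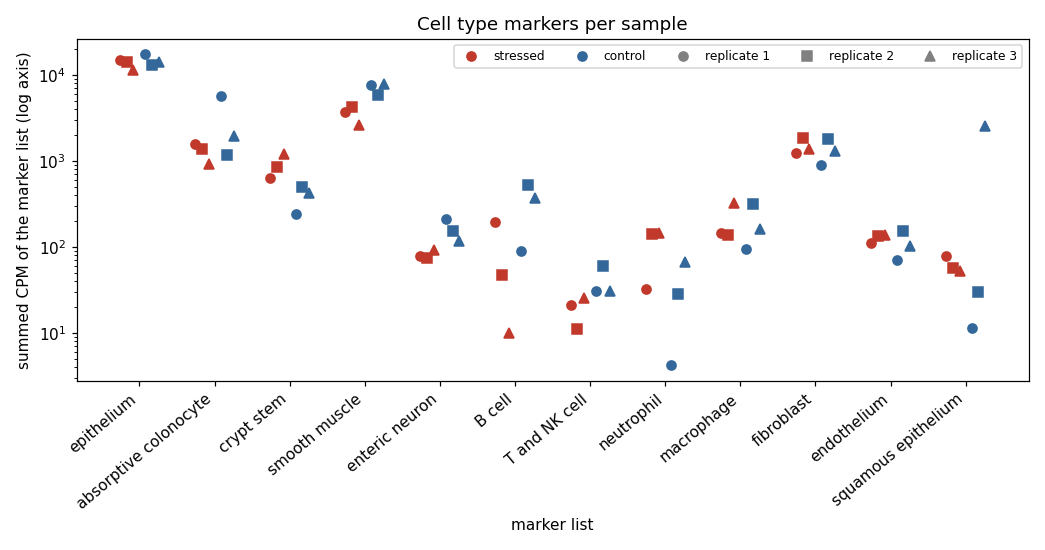
Summed CPM, on a log axis, of 12 cell type marker lists in each sample, with stressed samples in red left of control samples in blue and marker shapes for replicates. Smooth muscle, enteric neuron and T and NK cell sums lie lower in every stressed sample, crypt stem sums lie higher, and control replicate 3 stands alone for squamous markers.

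The label calls the cells colorectal cancer cells, while markers of muscle, nerve, blood and connective tissue were found beside the 9 epithelial ones in all 6 samples. Total counts per sample ran from 29690387 to 32783104 in stressed samples and from 27160547 to 33017500 in control samples. All pairs of samples differed by more than sampling noise, with a chi-square per gene of 39.3 or more. Leaving out each sample in turn gave log2 fold changes of -1.36 to -0.89 for Arntl, -0.67 to -0.43 for Npas2, -1.35 to -0.89 for Cry1, 0.79 to 1.34 for Nr1d1, 0.81 to 1.43 for Nr1d2, 0.80 to 1.38 for Dbp and 0.70 to 1.14 for Tef. For Per3 it gave 0.24 to 0.61 and for Per1 -0.19 to -0.093, with the value nearest to 0 without stressed replicate 1 for both. For Clock it gave -0.20 to 0.10, with a change of sign without control replicate 3 or stressed replicate 3.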

How the data were processed

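RNA was sequenced from 6 colon samples, 3 per group by the treatment label. The authors deposited whole-number read counts per gene and FPKM values (fragments per kilobase, scaled to depth), per the file headers. Per the submitters' processing notes, GRCm39 was the build and the tools were featureCounts 1.6.2, HISAT2 2.1.0, edgeR 3.24.3, fastp 0.19.3, DESeq2 1.22.1 and StringTie 1.3.4d, with no role stated. Annotation and strand setting: not given in the sources used here.

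Counts were filtered with filterByExpr, scaled with TMM and tested across 15890 genes with edgeR 4.0.16 (quasi-likelihood, robust, R 4.3.3) by group alone, at a Benjamini-Hochberg adjusted p of 0.05. The SE is the absolute log2 fold change over the square root of F. Log2 CPM used a prior count of 2. Alternatives used DESeq2 1.42.0, limma-voom 3.58.1, other scalings and filters, and each sample left out. Scripts were tested on simulated data. The SE rests on the spread between samples, while the Poisson interval covers counting error only.

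The members and lists were chosen with earlier results of these data known. All members were named. Of the further core clock genes, Per2, Cry2, Ciart, Bhlhe40, Bhlhe41, Rora, Nfil3 and Hlf were named whatever their values, with any whose groups did not overlap, every output gene, Fkbp5, and the 5 genes nearest to Arntl and Dbp at a mean of at least 1 CPM, leaving out predicted genes. A gene of the core clock list is not reported here and is left out of its counts. Thra and Sphk2 were added as overlapping genes. Replicates were numbered in accession order. Promoter sequences come from RefSeq tables on another build than the counts.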

Additional observations from a re-analysis of the deposited data

How the results depend on the processing

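The direction of 5 members above 0 and 5 below was kept under every scaling, filter and tool and in FPKM, except that leaving out control replicate 3 or stressed replicate 3 gave 6 above 0, through Clock. All 140 recomputed member values moved by less than 1 SD of the replicates. For values with a sample left out this says little, because dropping 1 of 3 replicates can hardly move a group mean that far. Leaving out each sample in turn, chosen after seeing the data for this count, gave 6 to 8 members whose groups did not overlap, where this held for 28.7% to 41.5% of all genes tested. Groups that lie apart stay apart when a sample is left out, so neither count could fall, and nothing is read from them. DESeq2 called 818 genes of the whole table, 1 further core clock gene and 2 outputs, where edgeR called 0 of each and 2644 genes had an unadjusted p under 0.05, and limma-voom called 0. The cause of that gap was not tested. Leaving out samples gave -0.013 to 0.46 for Cry2, -0.034 to 0.28 for Por and -0.80 to 0.13 for Fkbp5, with the opposite sign without stressed replicate 3, control replicate 2 and control replicate 1. The scalings tried moved the median of all genes by less than 0.1 on the log2 scale. No paired analysis was possible because replicate numbers follow accession order and pair no samples. Among the 10 members depth limits Dbp most, at 31 to 159 counts.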
